A study of Mus musculus with 6 samples.

Results

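Plasma membrane amino acid transporters were examined in mouse multiple myeloma cells, labelled as malignant plasma cells of the bone marrow, after treatment with insulin-like growth factor 1 (IGF-1). The 10 genes were Slc3a2, Slc7a5, Slc7a6, Slc7a7, Slc7a1, Slc1a4, Slc1a5, Slc38a1, Slc38a2 and Slc6a9, and all probe sets annotated to one of these symbols alone were taken, which gave 14 of the 22690 probe sets on the array. The IGF-1 group held 3 arrays of cells kept for 12 h in medium without serum to which 100 ng/ml IGF-1 had been added. The control group held 3 arrays of cells kept for 12 h in medium without serum and without IGF-1. Absence of serum was therefore common to both groups. The labels name no strain, cell line or animal and do not say whether replicates were separate cultures, so p-values measure only the spread among these arrays, part or all of which may be technical.

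Cells take up amino acids through solute carriers of several families. Slc3a2 encodes the heavy chain of CD98 (4F2hc), a glycoprotein that carries light chains of the SLC7 family to the cell surface and holds them there by a disulfide bond. The light chains do the transport as exchangers, LAT1 (Slc7a5) for large neutral amino acids such as leucine, and y+LAT2 (Slc7a6) and y+LAT1 (Slc7a7) for cationic against neutral amino acids. CAT1 (Slc7a1) carries cationic amino acids without a heavy chain. ASCT1 (Slc1a4) and ASCT2 (Slc1a5) exchange small neutral amino acids, ASCT2 also glutamine, while SNAT1 (Slc38a1) and SNAT2 (Slc38a2) take up neutral amino acids together with sodium, and GLYT1 (Slc6a9) takes up glycine. Plasma cells secrete antibody in bulk and draw heavily on this supply. Several of these genes are known targets of ATF4, a transcription factor of the amino acid response.

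The values are MAS5 signals, linear intensities with 1 value per probe set and array. Some plasma cell markers were bright, with mean signals of 4311 in IGF-1 arrays and 4443 in control arrays for Jchain, the antibody joining chain, and of 938 and 852 for Sdc1, the surface proteoglycan CD138. Others were dimmer, with 189 and 257 for Prdm1 and 176 and 282 for Slamf7. Some neutrophil markers were brighter than Jchain, with mean signals of 6386 in IGF-1 arrays and 7358 in control arrays for S100a9. The tested probe sets numbered 11313, those whose mean signal over the 6 arrays was above 53.61. Of these, 772 (6.82%) rose with IGF-1 and 937 (8.28%) fell, that is, had an adjusted p under 0.05 in limma's test with Benjamini-Hochberg adjustment over all 11313. With arrays scaled instead to their hybridization controls, bacterial and phage transcripts added in known amounts, the median of all tested probe sets moved by 0.26 on the log2 scale and 2740 (24.2%) rose and 246 (2.17%) fell, among them 4 transporter probe sets that rose and 0 that fell, so each direction below is relative to the equal array means set by the authors.

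The array held 9 plasma cell markers, each above the signal minimum. With IGF-1, 2 of them fell and 0 rose, and 7 of 9 were lower. Their median log2 difference was -0.17, against -0.01 for all tested probe sets. Under scaling to the hybridization controls it was 0.11, against 0.25 for all tested probe sets. Those that fell were Tnfrsf17, the receptor BCMA, by 0.51 and Slamf7, a surface antigen of myeloma cells, by 0.62, and both calls held with each array left out. In addition, 1 dimmer probe set each of Irf4 (-0.71) and Xbp1 (-0.63), transcription factors of plasma cells, fell while their brightest ones did not pass (-0.17 and -0.19). The summed signal of the 9 markers was 12819 to 13370 in IGF-1 arrays and 13660 to 14768 in control arrays. Most of it came from Xbp1 and Jchain, with mean signals of 4317 and 4311 with IGF-1, against 4953 and 4443 in controls. Of the 10 neutrophil markers, which also lay above the minimum, 2 fell and 0 rose, and 9 of 10 were lower. Their median was -0.23, and it was 0.05 under that scaling, against the 0.25 of all tested probe sets. Ltf, lactoferrin, fell by 0.60 and Ctsg, cathepsin G, by 0.55. The call for Ltf was lost without IGF-1 2 (adjusted p = 0.0522), and that for Ctsg if any array other than control 1 or IGF-1 3 was left out (adjusted p up to 0.133). The summed signal of the 10 neutrophil markers was 23417 to 26106 in IGF-1 arrays and 25293 to 30228 in control arrays. S100a8, S100a9 and Ngp made up most of it, with mean signals of 5355, 6386 and 5321 with IGF-1. In controls these were 5908, 7358 and 6089. Of 5 T cell markers, 0 passed the signal minimum. The shares of these lists that passed, 22.2% and 20%, stand against 15.1% of all genes tested, and the part of these markers in the transporter results was not tested.

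Of the 14 transporter probe sets, 11 passed the signal minimum, and these covered 9 of the 10 genes. With IGF-1, 3 probe sets rose, 1 fell and 7 did not pass the test. Differences are of log2(signal + 15.57), IGF-1 minus control. The heavy chain transcript Slc3a2 and the glycine transporter transcript Slc6a9 rose by about the same log2 difference, 0.60 ± 0.09 and 0.62 ± 0.14 (SE), and the light chain transcript Slc7a7 fell by 0.50 ± 0.13. The light chain Slc7a6, both SLC1 carriers and both SLC38 carriers did not pass, nor did Slc7a5. By gene, 2 of 9 rose, against 7.05% of the 6895 genes tested, and 1 of 9 fell, against 8.05%, each gene being represented by its brightest tested probe set.

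**Figure D1:**
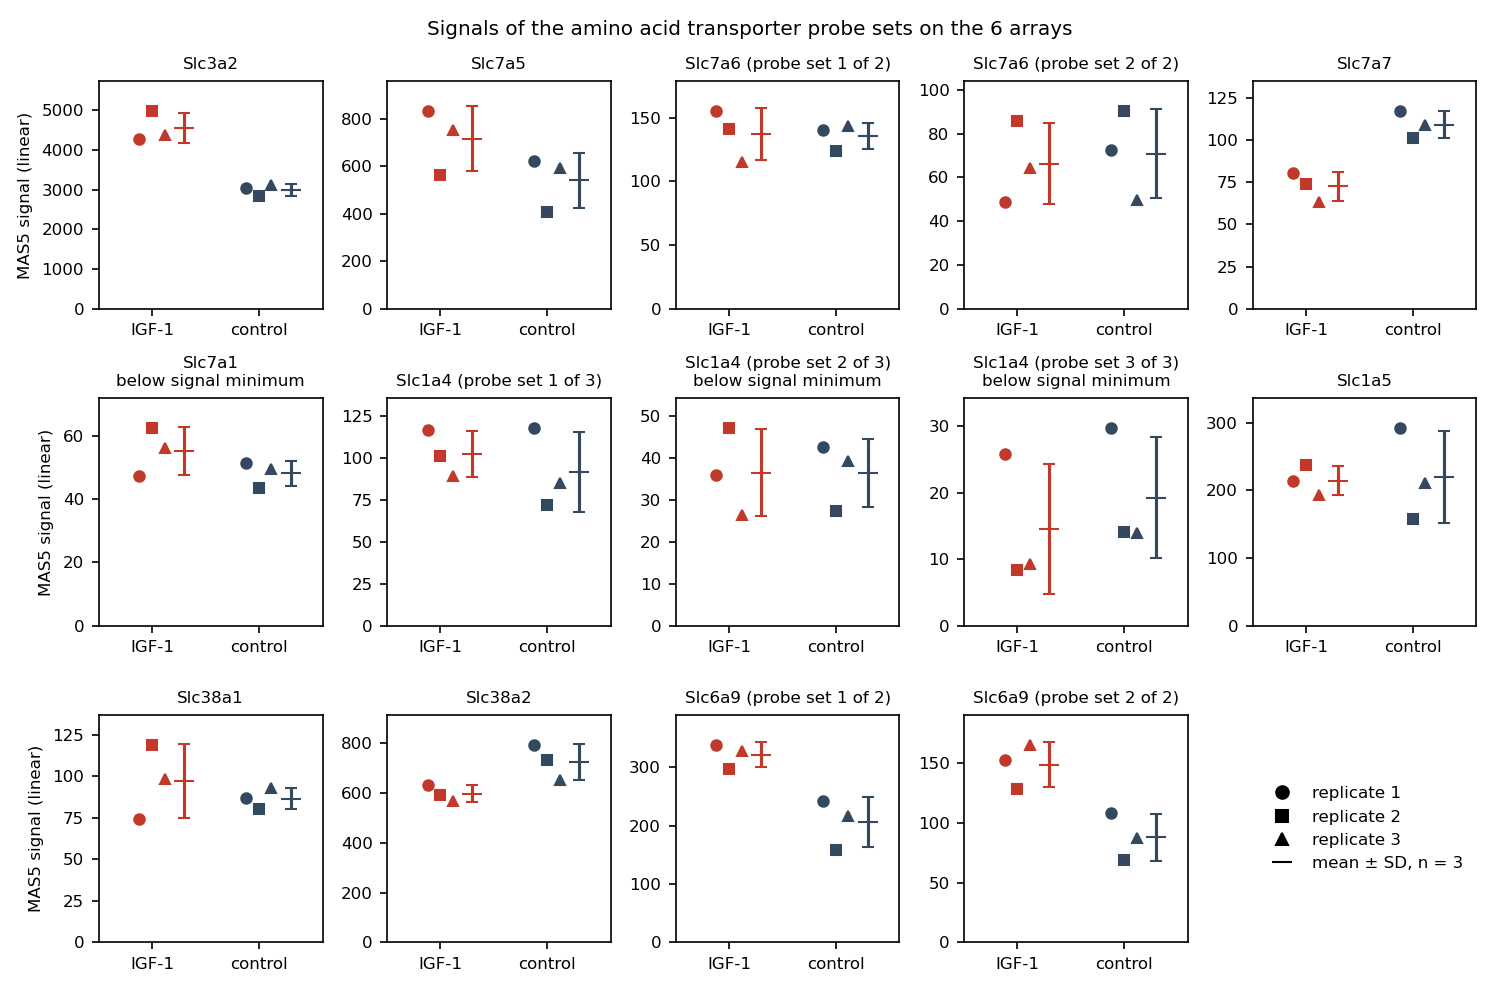
Signals of the 14 transporter probe sets. The vertical axes give the linear MAS5 signal from 0, each panel on its own scale; IGF-1 arrays are on the left in red and control arrays on the right in blue, marker shapes stand for replicates 1 to 3, and bars for the mean ± SD of 3 arrays. Slc3a2 and both Slc6a9 probe sets had all IGF-1 arrays above all control arrays, Slc7a7 and Slc38a2 had them below, and the groups overlapped in the other panels.

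Slc3a2 had signals of 4268, 4973 and 4385 in the 3 IGF-1 arrays, against 3037, 2833 and 3119 in the 3 control arrays. All IGF-1 arrays lay above all control arrays, with IGF-1 2 the highest and control 2 the lowest. The mean signal was 4542 ± 378 with IGF-1 and 2996 ± 147 in controls (SD, n = 3 each), a ratio of 1.52. The difference passed limma's test across all probe sets (adjusted p = 0.0027, 95% interval 0.40 to 0.79 on the log2 scale). It also passed under each of the 17 alternative settings tried, with each of the 6 arrays left out among them (highest adjusted p 0.0183).

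Slc7a5, the LAT1 light chain and the best known partner of the heavy chain, had signals of 831, 563 and 752 with IGF-1, against 621, 408 and 593 in controls. The groups overlapped, because IGF-1 2 lay below control 1 and control 3. Mean signals were 715 ± 138 and 540 ± 115 (SD, n = 3 each), and the log2 difference of 0.40 ± 0.17 did not pass limma's test (adjusted p = 0.15). Its 95% interval, before adjustment for the number of probe sets, ran from 0.01 to 0.79, so a difference as large as that of Slc3a2 lay inside it. It passed after scaling to the hybridization controls (0.68, adjusted p = 0.0148).

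Slc7a6, the y+LAT2 light chain, was measured by 2 probe sets that did not pass the test (limma, adjusted p = 0.98 and 0.85). The brighter one had signals of 155, 141 and 115 with IGF-1, against 140, 124 and 143 in controls. Its log2 difference was 0.01 ± 0.13 (95% interval -0.28 to 0.29), and that of the dimmer one was -0.08 ± 0.21 (95% interval -0.55 to 0.40). In both the groups overlapped.

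Slc7a7, the y+LAT1 light chain, moved the other way. Its 1 probe set had signals of 80.2, 74.0 and 63.1 with IGF-1, against 117, 101 and 109 in controls, so that every IGF-1 array lay below every control array. The mean was 72.4 ± 8.62 with IGF-1 and 109 ± 8.08 in controls (SD, n = 3 each), and the log2 difference of -0.50 ± 0.13 passed limma's test (adjusted p = 0.029). This call ended when any array but IGF-1 1 was left out (adjusted p up to 0.0992), without the filter on dim probe sets (adjusted p = 0.0756) and under scaling to hybridization controls (-0.26, adjusted p = 0.264).

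Slc7a7 is known from macrophages and epithelia, and macrophage and monocyte markers differed between the groups as well. Of 10 such markers tested, 5 fell, 1 rose and 4 did not pass, so 60% passed, against 15.1% of all genes tested. The median log2 difference was -0.48, against -0.01 for all genes tested. Under scaling to the hybridization controls it was -0.20, against 0.25 for all tested probe sets. The summed signal of the 12 markers on the array, 2 of them below the signal minimum, was 7615 to 10177 in IGF-1 arrays and 9326 to 12143 in control arrays. Lyz1 and Lyz2 gave most of this sum, with mean signals of 3008 and 3400 with IGF-1, against 4041 and 4256 in controls. Csf1r, the CSF-1 receptor of macrophages, had a log2 difference of -1.02 ± 0.18 (limma, adjusted p = 0.0059) in its brightest probe set and kept that call with each array left out, but its other 2 probe sets did not pass (-0.43 and 0.15, adjusted p = 0.091 and 0.57). The other 4 that fell, Ccr2 (1 of 2 probe sets), Cd14, Itgam and Lyz1, lost their calls when any array other than control 1 or IGF-1 3 was left out (adjusted p up to 0.132). Cd68, the 1 that rose, had mean signals of 1249 with IGF-1 and 935 in controls. Its log2 difference was 0.41 ± 0.09 (limma, adjusted p = 0.012), and its call was lost only without IGF-1 2 (adjusted p = 0.0519). The part of these markers in the Slc7a7 result was not tested. In such bulk samples, fewer cells of a type and less RNA per cell cannot be told apart.

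Since the heavy chain serves all 3 light chains, its signal was also set against each of theirs within each array. The log2 ratio of Slc3a2 to Slc7a7 was 5.70 ± 0.18 with IGF-1 and 4.60 ± 0.07 in controls (SD, n = 3 each), a difference of 1.10, and the groups did not overlap. The ratio to Slc7a6 differed by 0.59, also without overlap (4.65 to 5.07 with IGF-1, 4.30 to 4.35 in controls). The ratio to Slc7a5 differed by 0.20 with overlapping groups (2.34 to 3.11 and 2.26 to 2.75). Exact two-sided permutation tests gave p = 0.10, 0.10 and 0.60, where 0.10 is the smallest p that 3 against 3 arrays allow, and 0.25, 0.25 and 0.60 after Benjamini-Hochberg adjustment over 5 such pairs. These ratios were chosen after the values were known, restate the differences of the single probe sets and do not give the molar ratio of the chains, and none of them could pass at this number of arrays.

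**Figure D2:**
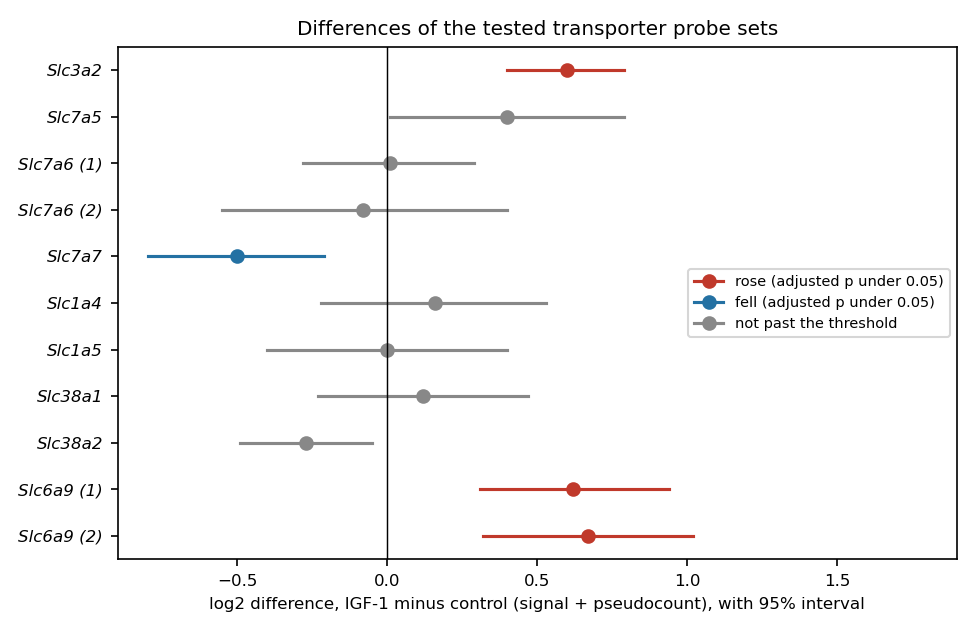
Log2 differences (IGF-1 minus control) of the 11 tested transporter probe sets, on the scale of log2(signal + pseudocount), with 95% intervals from limma before adjustment. Numbers in brackets mark probe sets of 1 gene from brighter to dimmer, and colour marks the call; Slc3a2 and both Slc6a9 probe sets lie right of 0 in red, Slc7a7 lies left of 0 in blue, and the other 7 are grey.

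Slc7a1, the CAT1 carrier of arginine and lysine, lay just under the signal minimum and was not tested. Its signals were 47.3, 62.6 and 56.2 with IGF-1, against 51.4, 43.7 and 49.5 in controls, and the groups overlapped.

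Neither SLC1 carrier passed. Slc1a5, which encodes ASCT2, had signals of 213, 237 and 193 with IGF-1, against 292, 157 and 211 in controls. The control arrays spread more widely than the IGF-1 arrays, and enclosed them. The log2 difference was -0.00 ± 0.18 (95% interval -0.40 to 0.40), below the 0.60 of Slc3a2, whose own interval ran from 0.40 to 0.79. These 2 genes were not compared by a test. The difference of Slc1a5 ranged from -0.20 without control 2 to 0.21 without control 1. Slc1a4, which encodes ASCT1, had 117, 101 and 89.5 with IGF-1, against 118, 71.8 and 85.0 in controls, in the 1 of its 3 probe sets that passed the signal minimum. Its difference was 0.16 ± 0.17 (95% interval -0.22 to 0.53), with overlapping groups. The other 2 probe sets of Slc1a4 had mean signals of 36.5 and 14.5 with IGF-1, and of 36.3 and 19.2 in controls.

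The sodium-coupled pair differed in sign without passing. Slc38a2 had signals of 634, 592 and 567 with IGF-1, against 794, 732 and 651 in controls. Every IGF-1 array lay below every control array, but the log2 difference of -0.27 ± 0.10 did not pass limma's test (adjusted p = 0.097), and it was 0.01 once arrays were scaled to the hybridization controls. SNAT2 is known for its induction when amino acids are scarce. Slc38a1 had 74.4, 119 and 98.2 with IGF-1, against 86.8, 80.1 and 93.0 in controls, a difference of 0.12 ± 0.16 (95% interval -0.23 to 0.47), and its groups overlapped. The within-array log2 ratio of Slc38a1 to Slc38a2 differed by 0.39 with overlapping groups (exact permutation p = 0.20, two-sided), and that of Slc1a4 to Slc1a5 by 0.16 (exact permutation p = 0.30). After adjustment over the 5 pairs these were 0.33 and 0.38.

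Slc6a9, which encodes the glycine transporter GLYT1, rose in both of its probe sets. The brighter probe set had signals of 339, 298 and 328 with IGF-1, against 242, 159 and 217 in controls. Means were 322 ± 21.5 and 206 ± 42.3 (SD, n = 3 each), a ratio of 1.56, with an adjusted p of 0.017 in limma's test. The dimmer probe set, designed from another transcript record, had 152, 128 and 165 with IGF-1, against 108, 68.8 and 87.1 in controls, a log2 difference of 0.67 ± 0.16 (limma, adjusted p = 0.019). In both, all IGF-1 arrays lay above all control arrays, with control 2 the lowest. Both calls were lost without IGF-1 1 or IGF-1 3 and without the filter on dim probe sets, and that of the dimmer probe set also without control 2 (highest adjusted p 0.069).

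Genes most like Slc6a9 in pattern, by Pearson's r of log2 values of its brighter probe set over the 6 arrays, were Ndufc2 (r = 0.9921), a subunit of respiratory complex I, Slc35c1 (r = 0.9918), the GDP-fucose carrier of the Golgi, and Impdh1 (r = 0.9883), an enzyme of guanine nucleotide synthesis. Of the 6886 genes compared, they were the highest once genes with provisional names were set aside, and the 6 points share the split into 2 groups.

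Groups that did not overlap were seen for 3 transporter probe sets with higher and 2 with lower signals under IGF-1, of 11 tested. Over all tested probe sets the shares were 16.1% and 18.7%. Control 2 gave the lowest of the 3 control signals for 9 of the 11 transporter probe sets, against 34.8% of all tested probe sets, a count made after the values were seen. Without control 2, the log2 difference was 0.56 for Slc3a2 (adjusted p = 0.0095), 0.46 for the brighter Slc6a9 probe set (adjusted p = 0.0457) and 0.21 for Slc7a5 (adjusted p = 0.424), all from limma.

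**Figure D3:**
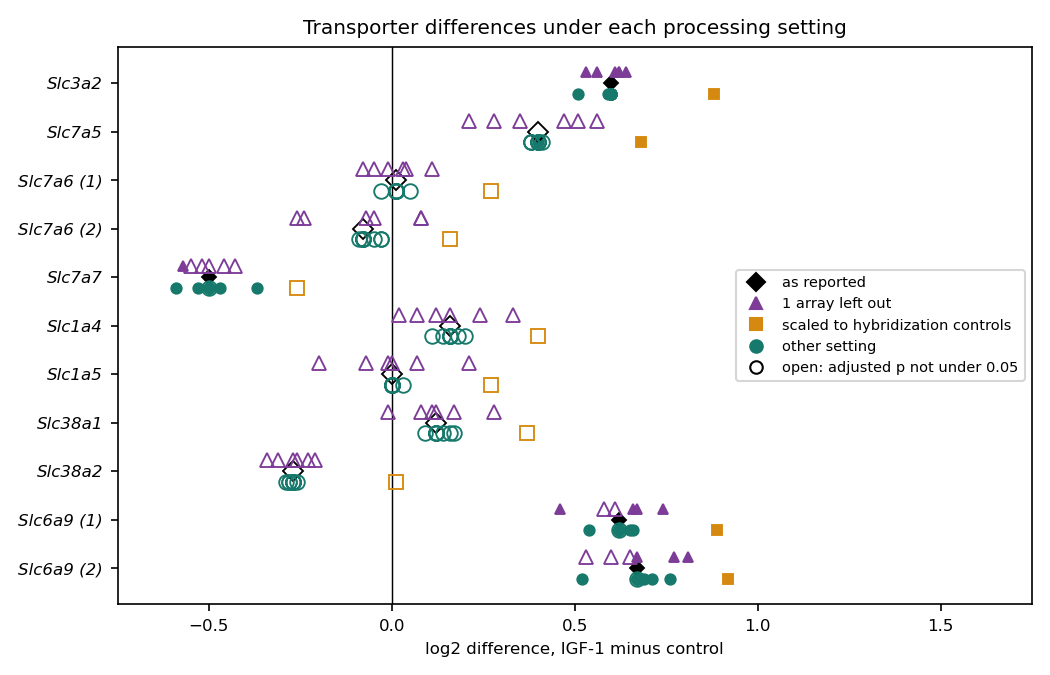
Log2 difference (horizontal axis, IGF-1 minus control) of each tested transporter probe set under each processing setting. Diamonds are the values as reported, triangles leave out 1 array, squares are scaled to the hybridization controls and circles are the other settings; filled markers have an adjusted p under 0.05. Slc3a2 is filled throughout, Slc6a9 and Slc7a7 lose calls in some settings, and scaling to the hybridization controls moves all 11 probe sets to the right.

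That scaling multiplies all signals of an array by 1 factor, so differences taken from its own median over all probe sets (0.25) stay near those reported by construction. Slc3a2 was 0.63 above it, the Slc6a9 probe sets 0.64 and 0.67 above it and Slc7a5 0.43 above it, while Slc7a7 was at -0.51 and Slc38a2 at -0.24 from it.

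Promoter windows from RefSeq (build GRCm38.p6, 250 bases before to 50 after a transcript start) were given for 7 of the 10 genes, in 15 windows, and were searched for the core of the C/EBP-ATF response element, TGATGNAAN, on both strands. Slc7a5, Slc1a5 and Slc38a1 were not in that table. The core was found in 3 of these 15 windows, some of which overlap, and in 3.95% of all 32851 windows. The 3 windows belonged to 2 genes, Slc7a7 and Slc1a4. The matching Slc7a7 windows overlap and share the same TGATGCAAC, so that site is counted more than once. Stretches from 200 bases before to 10 bases after the start are shown for a gene that rose without a match, for both genes with a match and for Asns, asparagine synthetase, a known target of ATF4 in this response. Capitals mark the core.
Slc3a2: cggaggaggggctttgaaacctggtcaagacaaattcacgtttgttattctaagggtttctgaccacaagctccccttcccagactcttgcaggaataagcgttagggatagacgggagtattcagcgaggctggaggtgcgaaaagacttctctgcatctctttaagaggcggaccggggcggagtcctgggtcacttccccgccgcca
Slc7a7: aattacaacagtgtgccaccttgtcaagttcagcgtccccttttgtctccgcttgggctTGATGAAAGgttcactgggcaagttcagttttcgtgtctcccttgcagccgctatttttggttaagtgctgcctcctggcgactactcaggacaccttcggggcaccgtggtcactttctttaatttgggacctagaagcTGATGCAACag
Slc1a4: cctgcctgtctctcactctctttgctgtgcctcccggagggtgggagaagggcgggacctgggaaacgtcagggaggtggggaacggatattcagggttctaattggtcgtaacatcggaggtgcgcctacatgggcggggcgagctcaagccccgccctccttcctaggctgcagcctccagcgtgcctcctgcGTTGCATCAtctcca
Asns: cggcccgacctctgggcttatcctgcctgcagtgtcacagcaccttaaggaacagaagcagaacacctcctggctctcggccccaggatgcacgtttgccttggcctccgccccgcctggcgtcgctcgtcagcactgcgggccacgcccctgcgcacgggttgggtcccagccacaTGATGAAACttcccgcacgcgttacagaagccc
All 4 lie on the minus strand and are printed in the direction of the gene, from chr19:8713888-8714097 for Slc3a2, chr14:54417935-54418144 for Slc7a7, chr11:20332704-20332913 for Slc1a4 and chr6:7693200-7693409 for Asns.

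Matches and calls are set side by side here only for genes with a window, and a link between them was not tested. Slc3a2 and Slc6a9, which rose, had no match in the 1 and 3 windows given. Slc7a7, which fell, had 2 matches in the window shown, which is 1 of its 5 windows, and 1 of these matches lay across the transcript start. Slc1a4, whose difference did not pass, had 1. Asns had 2817 ± 75.0 with IGF-1 and 2244 ± 261 in controls (SD, n = 3 each), a log2 difference of 0.33 ± 0.10 (limma, adjusted p = 0.047) that passed in 1 of 2 probe sets and was lost without each array but control 1 (highest adjusted p 0.136). A match is a description of these letters and not a site of binding, and a window without one says nothing about ATF4 elsewhere in the gene.

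Other plasma membrane amino acid transporters were mostly dim. Of 24 such genes on the array, 20 lay below the signal minimum, among them Slc7a11, the cystine carrier xCT that also pairs with the CD98 heavy chain, with mean signals of 19.7 in IGF-1 arrays and 26.9 in control arrays. Of the 4 above it, 1 fell and 0 rose. Slc6a6, the taurine transporter, fell to 60.3 ± 13.9 with IGF-1, against 99.7 ± 20.1 in controls (SD, n = 3 each, limma adjusted p = 0.048), a call that ended if control 2, control 3, IGF-1 1 or IGF-1 2 was left out (adjusted p up to 0.148). Slc6a17, Slc7a10 and Slc38a3 had log2 differences of -0.18, -0.06 and -0.05. Of 3 tested carriers of lysosomes and other inner membranes (Slc15a4, Slc38a10 and Slc66a1), 0 passed by the brightest probe set, with differences of 0.17, -0.13 and -0.27. Of the 6 tested probe sets of Slc38a10, 1 dimmer one passed in the other direction (0.35, limma adjusted p = 0.03). By the brightest probe set, 0 passed of the 2 sodium pump subunits tested, Atp1b2 and Atp1b3.

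Among 22 tested genes of the ATF4 amino acid response other than the transporters, 12 rose, 0 fell and 10 did not pass by the brightest probe set. Thus 54.5% passed, against 15.1% of all genes tested. The median log2 difference was 0.35, against -0.01 for all genes tested and 0.12 for the 9 transporter genes. Psph, the last enzyme of serine synthesis, and Cth, which makes cysteine from cystathionine, were higher by 1.18 ± 0.10 and 1.79 ± 0.14, and Stc2, Cebpb and Phgdh by 0.93, 0.62 and 0.59. These 5 calls held with each array left out, that of Cebpb in 1 of 2 probe sets. Atf4 itself had a difference of 0.09 (limma, adjusted p = 0.56). Of 18 tested cytosolic aminoacyl-tRNA synthetases, which load amino acids on tRNA, 3 rose, 0 fell and 15 did not pass by the brightest probe set (median 0.15). The share that passed was 16.7%, near the 15.1% of all genes tested. Among the genes that did not pass, 1 dimmer probe set each of Aars and Wars rose, and 1 of Farsb fell. Sars rose by 0.72, while Yars (0.56) lost its call without IGF-1 2 and Vars (0.39) did so if control 2, control 3, IGF-1 1 or IGF-1 3 was left out (adjusted p up to 0.0517 and 0.0542). The ATF4 list is one for which a rise was already known from these arrays.

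**Figure D4:**
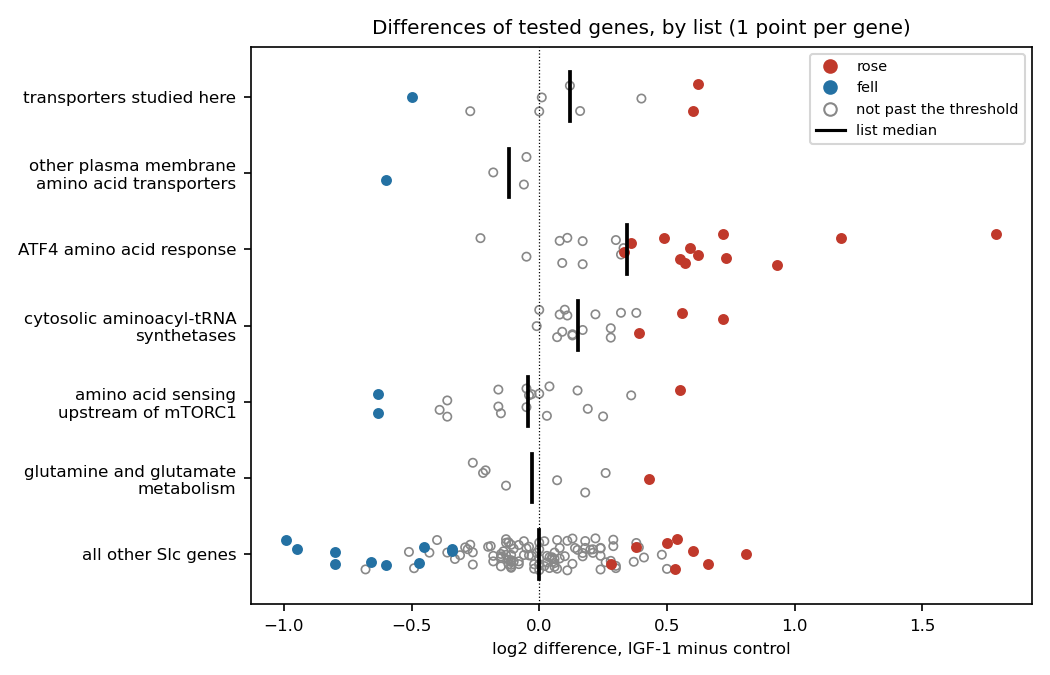
Log2 differences (IGF-1 minus control) of tested genes, 1 point per gene by its brightest tested probe set, in 7 lists. Filled red points rose, filled blue points fell, open points did not pass, and vertical bars are list medians, at 0.12 for the transporters studied here, 0.35 for the ATF4 amino acid response and -0.00 for all other Slc genes; vertical position within a list has no meaning.

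In the sensing of amino acids ahead of mTORC1, the kinase complex that leucine brought in by LAT1 helps to switch on, 1 of 20 tested genes rose, 2 fell and 17 did not pass by the brightest probe set (median -0.05). Of those that did not pass, Lamtor5 fell in 1 of 2 probe sets, the dimmer one. The share that passed, 15%, was that of all genes tested (15.1%), so the genes named next do not set the list apart. Rraga, a small GTPase that recruits mTORC1 to the lysosome, fell to 533 ± 20.0 with IGF-1, against 835 ± 58.8 in controls (SD, n = 3 each, log2 difference -0.63 ± 0.09, limma adjusted p = 0.0024), and kept its call with each array left out. Flcn, folliculin, which acts on the Rag GTPases, had a difference of -0.63 and passed in 1 of 2 probe sets, a call that ended if control 2, IGF-1 2 or IGF-1 3 was left out (adjusted p up to 0.0657). Sec13, a protein of both the GATOR2 complex and COPII vesicle coats, rose by 0.55, a call lost without IGF-1 2 (adjusted p = 0.0663). In glutamine and glutamate metabolism 1 of 8 tested genes (12.5%) rose by the brightest probe set, the mitochondrial aspartate aminotransferase Got2 (0.43), and 0 fell. Glud1 fell in 1 of its 2 probe sets, the dimmer one. The brighter of 2 Glul probe sets lay just under the signal minimum and was not tested. Its mean signals were 35.2 ± 5.79 with IGF-1 and 67.5 ± 5.91 in controls (SD, n = 3 each).

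Over all other genes with an Slc symbol, 8 of 121 tested rose and 10 fell by the brightest probe set, so 14.9% passed, against 15.1% of all genes tested. The median log2 difference was -0.00. The largest rise was that of Slc2a1, the glucose transporter GLUT1 (0.81, 3 of 3 probe sets), followed by Slc35e1 (0.66, 1 of 2), Slc35c1 (0.60, 1 of 1), Slc4a1 (0.54, 2 of 2) and Slc35a2 (0.53, 2 of 4). The largest falls were those of Slc41a1, a magnesium carrier (-0.99), Slc40a1, the iron exporter ferroportin (-0.95), Slc25a37, a mitochondrial iron carrier (-0.80), Slc25a20, the mitochondrial carnitine carrier (-0.80, 1 of 2 probe sets), and Slc25a45 (-0.66). With single arrays left out, Slc2a1, Slc41a1, Slc40a1, Slc25a37 and Slc25a45 kept their calls. Slc35e1 lost its call without control 2 or any 1 IGF-1 array (adjusted p up to 0.0988), Slc35c1 without control 2 or IGF-1 3, Slc4a1 without control 2, IGF-1 1 or IGF-1 2, Slc35a2 without control 1, IGF-1 2 or IGF-1 3, and Slc25a20 without IGF-1 1 or IGF-1 2.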

How the data were processed

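Total RNA from 6 samples was hybridised, as biotinylated cRNA primed from poly(A), to 1-colour Affymetrix arrays, per the labels' protocols. The deposited values are linear intensities (MAS5 signals) made by the authors with GCOS and MAS5, per the submitters' processing notes; no version was stated. A mean trimmed by 2% at both ends came to 150.1 for each array, so overall RNA output is taken as equal. The number of arrays limits the precision. Gene names came from the platform annotation (20380 probe sets with 1 symbol, 691 with several, 1555 unnamed), and 0 symbols changed through RefSeq.

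A pseudocount of 15.57, which is the 25th percentile over all values, was added before taking log2, after 64 control probe sets had been left out, and probe sets were tested where the mean signal exceeded the median of 53.61. Adding the pseudocount understates changes of dim probe sets. limma 3.58.1 in R 4.3.3 (lmFit, eBayes with trend, two-sided) compared IGF-1 with control arrays over 11313 probe sets, with Benjamini-Hochberg adjustment. All adjusted p-values come from limma. The fit was tested on simulated data. Alternatives covered the pseudocount, filter, normalization, variance model, array weights, cross-hybridizing probe sets, a replicate block, single arrays left out and the mean of a gene's probe sets. No batch or scan date was named. Named genes were all transporters, up to 5 genes with the smallest adjusted p per list, and the 5 largest rises and falls among other Slc genes. Asns, Slc7a11, Atf4, Csf1r, Cd68, Jchain, Sdc1, S100a9, Irf4, Xbp1 and genes of short lists were named for comparison after their values were seen. So were S100a8, Ngp, Lyz2, Prdm1, Glul, Glud1, Lamtor5, Aars, Wars and Farsb. The members and lists were chosen with earlier results of these data known. Plots were drawn with matplotlib 3.10.9 from tables made with Python 3.11.15 (pandas 2.3.3, scipy 1.17.1).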

Additional observations from a re-analysis of the deposited data

How the results depend on the processing

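Across 17 alternatives, Slc3a2 kept its direction and call. Over all probe sets, 448 rose and 498 fell without the filter, where 22626 were tested, against 2740 and 246 under scaling to hybridization controls (91.8% of calls rose, against 45.2%); with 1 array left out, 406 to 659 rose and 491 to 792 fell. Of transporter probe sets, 1 rose and 0 fell without the filter, 0 fell with the filter at the 70th percentile, which removed Slc7a7, and 0 fell under scaling to hybridization controls; with 1 array left out, 1 to 3 rose and 0 to 1 fell. Under that scaling 12 aminoacyl-tRNA synthetases rose, 4 amino acid sensing genes rose and 0 fell, and 25 other Slc genes rose and 4 fell. Without the filter, 0 sensing genes rose and 1 fell, and 5 other Slc genes rose and 6 fell; 6 fell at the 70th percentile, and 1 sensing gene fell without cross-hybridizing probe sets. With 1 array left out, 9 to 13 ATF4 response genes rose, 2 to 4 synthetases rose, 0 to 1 sensing genes rose and 1 to 3 fell, and 3 to 6 other Slc genes rose and 4 to 9 fell.

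Signs turned for values near 0. Slc1a5 was at 0.00 with log2(signal + 1) and with array weights, at 0.03 with quantile normalization and at 0.27 under scaling to hybridization controls, and at -0.20 to 0.21 with 1 array left out. Slc7a6 was at -0.03 with array weights (brighter probe set) and at 0.16 under scaling to hybridization controls (dimmer one), and with 1 array left out at -0.08 to 0.11 and -0.26 to 0.08. Slc38a1 was at -0.01 to 0.28 with 1 array left out, and Slc38a2 at 0.01 under scaling to hybridization controls. The cause was not tested.

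The labels number replicates 1 to 3 in both groups, and deviations from the group means correlated at 0.12, -0.033 and 0.127 between same-numbered arrays, against -0.149 to 0.029 between the others. Numbers 1 and 3 thus gave the 2 highest values, but IGF-1 2 and control 2 did not correlate best with each other, so the numbers were not used as pairs. With the replicate number as a block, 754 probe sets rose and 978 fell, Slc7a5 passed (adjusted p = 0.0227), and no other transporter changed its call, with 4 rises and 1 fall. With 3 arrays a group, low signals such as those of Slc7a1 limit what can be seen.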
